A study of Mus musculus with 14 samples.

Results

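Gene expression in the cerebellum was compared with that in the hippocampus of the same mouse strain. All 6 cerebellar libraries and all 4 hippocampal libraries of the series entered, chosen by the region named in their titles, which makes 10 of the 14 libraries; the 4 cerebral ones did not enter. The cerebellar set held 3 libraries of CARIP-/- knockout mice (KO1, KO2 and KO3) and 3 of wild-type mice (WT1, WT2 and WT3). The hippocampal set held 2 knockout (KO1 and KO2) and 2 wild-type libraries (WT2 and WT3). All mice were C57BL/6, and no treatment was given in the labels. Total RNA of whole tissue was sequenced, and the deposited table counts reads per gene. The sources used here give no sex, age or kind of deletion, and they do not say whether each library came from a separate animal. P-values therefore measure the spread between these libraries, which may be partly technical.

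The cerebellum is built mainly from small glutamatergic granule cells, whose parallel fibres excite the large GABAergic Purkinje cells, with GABAergic interneurons and Bergmann glia around them. The hippocampus is a forebrain structure whose glutamatergic pyramidal cells of CA1 to CA3 and dentate granule cells form a loop known for its role in memory. The cerebellum arises from the hindbrain under factors such as Engrailed and Zic, the hippocampus from the dorsal forebrain under Emx and Lhx2.

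The labelled regions were checked against defining markers. 306 to 527 CPM (reads of the gene relative to library size, on totals scaled by the TMM method) of Gabra6, the granule cell GABA-A subunit, were found in the cerebellar libraries. The hippocampal ones, always given in the order KO1, KO2, WT2 and WT3, held 7.64, 4.70, 8.60 and 0 CPM; the 0 allows up to 3 reads in that library, by counting error alone. Neurod6, a factor of forebrain pyramidal cells, had 4.77 to 6.32 CPM (median 5.11) in cerebellum against 239, 214, 250.1 and 242 CPM in hippocampus. En2, a midbrain and hindbrain factor, had 58.1 to 93.7 CPM (median 87.95) in cerebellum and 1.14, 1.24, 1.06 and 0.759 CPM in hippocampus. All 3 markers placed every library in its labelled region with no overlap.

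Some libraries stood apart, and this touches several results below. Cerebellar KO2 and WT2 held brainstem transcripts at higher levels than the other cerebellar libraries. Glra1, the adult glycine receptor subunit of brainstem and spinal cord, had 59.5 and 69.7 CPM in these libraries against 1.04 to 2.50 in the other cerebellar ones. Hoxa5, a posterior hindbrain factor, had 4.41 and 3.82 CPM in these 2 libraries and 0 reads in the other 4, as did the cholinergic enzyme gene Chat, with 4.87 and 6.29 CPM; both genes were picked after their values were seen. The myelin gene Mbp had 2207 and 4365 CPM in them against 1107 to 1478 in the other 4. Markers of cerebellar nuclei, brainstem and monoaminergic neurons were listed together, 20 in all, and 12 passed the filter on low counts. The summed level of these 12 was 871 CPM in KO2 and 1135 CPM in WT2, against 218 to 287 CPM in the other cerebellar libraries. The list does not separate neurons of the cerebellar nuclei from those of the brainstem. In a principal component analysis the first component took 87.8% of the variance and separated the regions, with coordinates of -26.1 for cerebellar WT2, -41.0 for KO2, -68.3 to -62.7 for the other cerebellar libraries and 78.8 to 85.9 for the hippocampal ones. Hippocampal KO1, KO2 and WT2 in turn held low levels of cerebellar transcripts, a median of 1.03%, 1.01% and 0.919% of the cerebellar mean over the 15 most cerebellar genes, against 0.103% in WT3. Those 15 genes were chosen by their difference between the regions in these same libraries. Totals were 20.1 to 28.5 M counted reads per library.

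**Figure D1:**
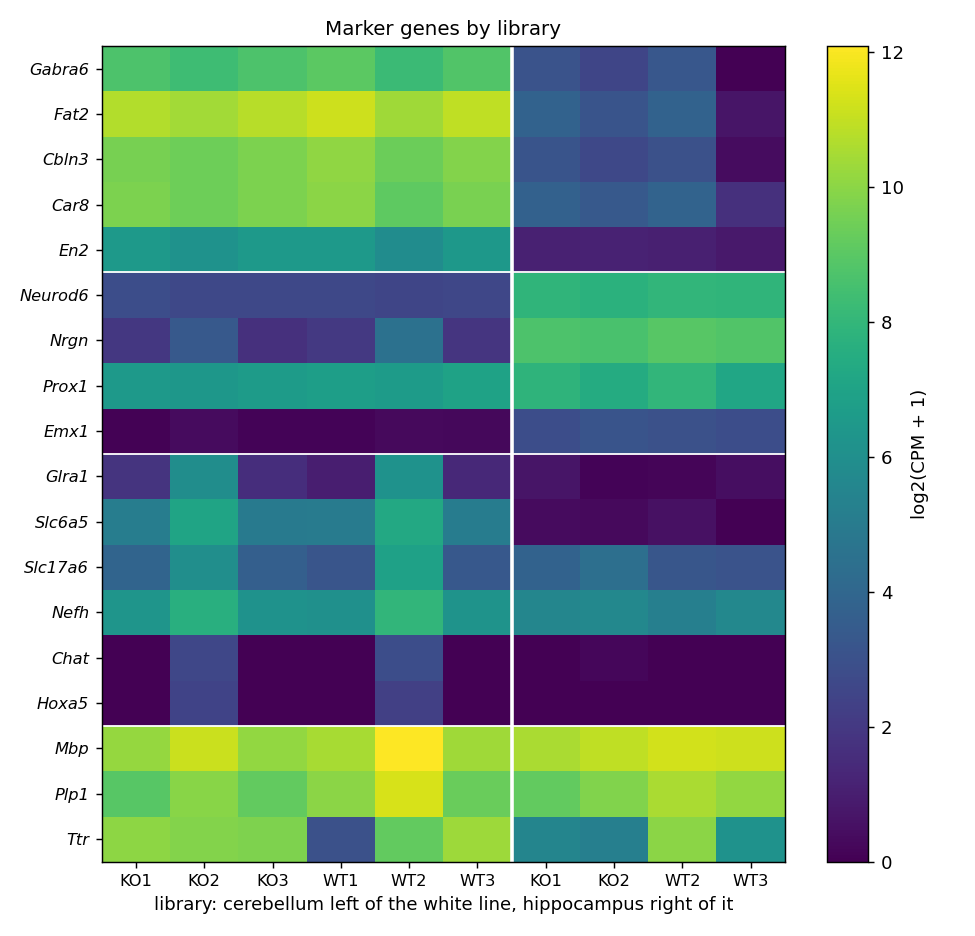
Level of 18 marker genes in each library as log2(CPM + 1), cerebellar libraries on the left and hippocampal ones on the right. White lines separate cerebellar, hippocampal, cerebellar nuclei or brainstem, and myelin or choroid plexus genes. Cerebellar KO2 and WT2 share high Glra1 and Slc6a5, and cerebellar WT1 and hippocampal WT2 differ from their own groups in Ttr.

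Most of the measured genes differed between the regions, 13038 of 22607 tested (57.7%). Of all genes tested, 6722 (29.7%) were higher in cerebellum and 6316 (27.9%) lower at an adjusted p under 0.05, by edgeR's quasi-likelihood test with genotype as an additive term and Benjamini-Hochberg adjustment. With a fold of at least 2 (log2 fold change of 1), 2581 genes (11.4%) were higher and 3055 (13.5%) lower. The largest differences leaned towards the hippocampus: 901 genes (3.99%) had a log2 fold change of at least 2 and 1349 (5.97%) of -2 or below, and at 5 and -5 these counts were 106 and 186. The median over all genes tested was 0.04 on the log2 scale, and the spread between libraries came to a biological coefficient of variation of 19%. In 5092 genes (22.5%) all cerebellar libraries lay above all hippocampal ones, and in 5094 (22.5%) below. Without cerebellar KO2 and WT2, 7171 genes were higher and 7140 lower. In bulk tissue, fewer cells of a type and less RNA per cell cannot be told apart, so each difference below is one of the whole region. Counts of list members below are to be read beside the 29.7% higher and 27.9% lower of all genes tested. With such shares, a list that holds genes of both directions shows no trait of its members by that alone.

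**Figure D2:**
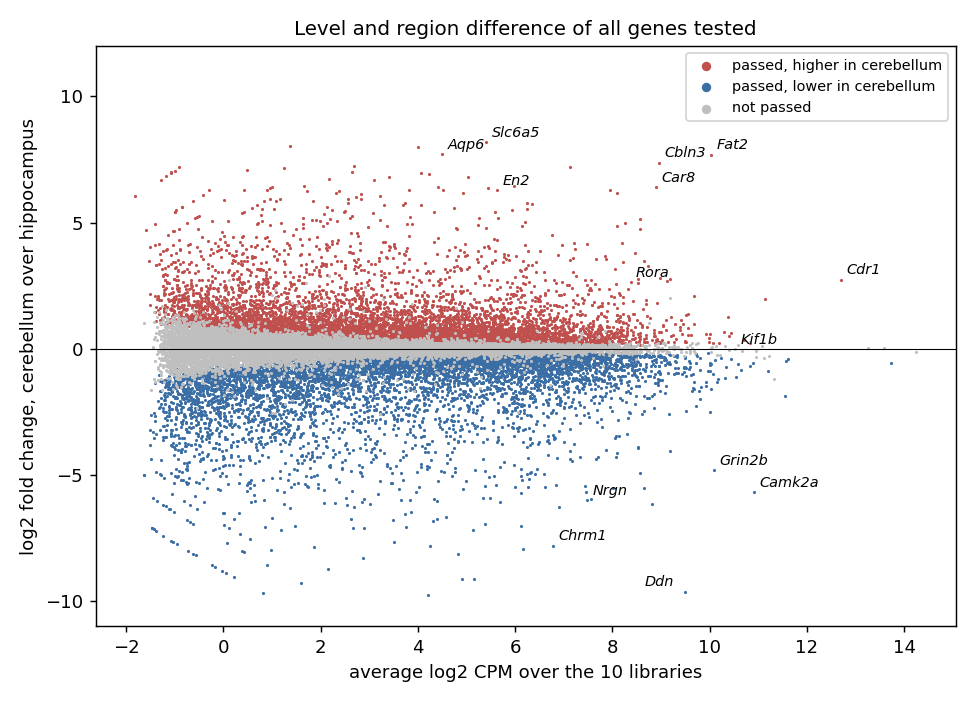
Log2 fold change of cerebellum over hippocampus against the average log2 CPM for the 22607 genes tested, one dot a gene, coloured by direction where the adjusted p was under 0.05. Fat2, Cbln3 and Car8 combine a high level with a log2 fold change over 6, and Camk2a, Grin2b and Ddn lie at the opposite edge.

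The 15 abundant genes most enriched in the cerebellum included markers of its main neurons. Fat2 (protein-coding, chr11:55250609-55336564 in GENCODE M21 on GRCm38), a giant cadherin of granule cell parallel fibres, had 1327 to 2310.1 CPM (median 1722) in cerebellum against 12.7, 7.81, 12.7 and 0.5995 CPM in hippocampus. Every cerebellar library lay far above every hippocampal one, and the low hippocampal library was WT3, as for Gabra6. The log2 fold change was 7.69 ± 0.79 (adjusted p = 7.80e-05). Cbln3 (7.37 ± 0.71), Gabra6 (6.30 ± 0.82) and Crtam (6.82 ± 0.38), an adhesion molecule of the immunoglobulin family, showed the same order of difference. Car8 (6.41 ± 0.54), Ppp1r17 (6.45 ± 0.48) and Nrk (6.40 ± 0.39) are Purkinje cell genes, and Uncx (6.96 ± 0.36), Barhl2 (6.93 ± 0.34), Lhx1 (6.36 ± 0.34) and En2 (6.28 ± 0.19) are homeobox factors. Cnpy1 (7.20 ± 0.50) modulates FGF signalling at the zebrafish midbrain-hindbrain boundary. Aqp6, an aquaporin best known from kidney, had 21.7 to 46.6 CPM (median 38.9) in cerebellum and 0.0910, 0.266, 0.341 and 0 CPM in hippocampus, a log2 fold change of 7.71 ± 0.43, or 8.33 without hippocampal WT2. Slc6a5, the glycine transporter GlyT2 of glycinergic neurons, had the largest value of the 15, 8.18 ± 1.13. Its level was 134 and 157 CPM in cerebellar KO2 and WT2 and 31.1 to 34.03 in the other 4, and the value without those 2 libraries was 7.07. Mkrn1-ps1, annotated as a processed pseudogene, reached 8.01 ± 0.49; its reads may be shared with its parent gene.

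The 15 abundant genes most depleted in the cerebellum were led by genes of forebrain neurons. Ddn (protein-coding, chr15:98803777-98809490), which encodes dendrin of forebrain dendrites, had 0.721 to 4.17 CPM (median 1.77) in cerebellum against 1859.9, 1645, 1991 and 1673 CPM in hippocampus. No cerebellar library came near any hippocampal one. Its log2 fold change was -9.64 ± 0.52 (adjusted p = 1.09e-06) and -10.46 without cerebellar KO2 and WT2. Dlx6os1, a long noncoding RNA of the Dlx5 and Dlx6 locus (reads of overlapping genes on the other strand cannot be told apart), had 7 reads over all cerebellar libraries and 4251 over the hippocampal ones. Crym (-9.14 ± 0.28), a thyroid hormone-binding protein, followed. Rgs14 (-8.12 ± 0.19), a regulator of G protein signalling known from CA2, had 0.0468 to 0.364 CPM (median 0.273) in cerebellum and 69.3, 65.6, 76.6 and 70.6 CPM in hippocampus. Icam5 (-7.92 ± 0.44, or -8.95 without the 2 libraries) is the telencephalic adhesion molecule telencephalin. Chrm1 (-7.81 ± 0.37, or -8.54) is the M1 muscarinic receptor and Kcnj4 (-6.82 ± 0.26) an inward rectifier channel. Lrrc10b (-7.81 ± 0.18), Lct (-7.19 ± 0.26), Rtn4rl2 (-7.06 ± 0.31, or -8.04), Cpne7 (-7.02 ± 0.86, or -10.18), Zfp831 (-6.93 ± 0.53, or -8.57), Dlx1 (-6.80 ± 0.31) and Fezf2 (-7.65 ± 0.40, or -8.52 without cerebellar KO3) were others of the set.

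By level, the cerebellum stood out for Cdr1 and the hippocampus for Camk2a. Cdr1 (chrX:61184005-61185558) had 8315 to 12772 CPM (median 9444) in cerebellum against 1669, 1625, 1343 and 1406 CPM in hippocampus, with no overlap and a log2 fold change of 2.73 ± 0.15. Its locus gives rise to the circular RNA Cdr1as from the opposite strand, and whether strand was used in counting is not given in the sources used here, so the 2 cannot be told apart. Camk2a, the alpha subunit of the calcium/calmodulin kinase of forebrain synapses, had 72.95 to 131 CPM (median 83.9) in cerebellum against 4831, 4419, 4802 and 4587 CPM in hippocampus, 51.7 times more in hippocampus. Cerebellar KO2 and WT2 did not bring it near the hippocampal range. Fat1 (2.78 ± 0.11), Ank1 (3.27 ± 0.10), a spectrin-binding ankyrin, and Chd7 (3.47 ± 0.17), a chromatin remodeller, were other abundant genes higher in cerebellum. Ncdn (-2.49 ± 0.16), Atp2b1 (-2.28 ± 0.09), a calcium pump, Agap2 (-2.59 ± 0.07), Ptk2b (-6.17 ± 0.39), a calcium-dependent tyrosine kinase, and Enc1 (-5.54 ± 0.68, or -6.65 without cerebellar KO2 and WT2) were abundant genes lower there.

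Nearly all listed granule cell genes were higher in cerebellum. Of the 26 tested, 25 passed higher and 1 lower, with a median log2 fold change of 3.43 against 0.04 over all genes tested. Cbln3, which forms complexes with Cbln1, had 667 to 1076 CPM (median 811) in cerebellum against 7.78, 5.15, 7.11 and 0.320 CPM in hippocampus. Cbln1, the secreted organizer of parallel fibre synapses, had 374 to 569 CPM (median 453) in cerebellum and 8.05, 9.85, 5.54 and 2.72 CPM in hippocampus, a log2 fold change of 6.15 ± 0.36. The zinc finger factors Zic1 (5.15 ± 0.47) and Zic2 (4.17 ± 0.18) differed less, with hippocampal levels of 5.24 to 28.1 and 9.23 to 17.8 CPM. Neurod1 (3.53 ± 0.23), a neuronal differentiation factor, Etv1 (2.13 ± 0.12) and Reln (2.68 ± 0.14), the secreted positioning signal, were also higher. Calb2 (4.12 ± 0.19), the calcium buffer calretinin, marks granule and unipolar brush cells of the cerebellum. The exception was Slc17a7, the vesicular glutamate transporter VGLUT1 of both granule and pyramidal cells. It had 212 to 349 CPM (median 260.5) in cerebellum against 828, 805, 831 and 1008 CPM in hippocampus, a log2 fold change of -1.69 ± 0.10.

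Purkinje cell genes behaved alike, with 27 of 31 tested higher, 3 lower and a median of 3.43. Car8, a carbonic anhydrase-related protein that binds the inositol trisphosphate receptor, had 544 to 1013 CPM (median 822) in cerebellum and 12.4, 9.23, 13.6 and 2.20 CPM in hippocampus. Its partner gene Itpr1, which encodes that receptor, had 2239.8 to 3739 CPM (median 3426) against 868, 855, 730.4 and 783 CPM, a log2 fold change of 1.98 ± 0.14. The phospholipase gene Plcb4 (3.44 ± 0.11) rose with it, as did Rora (2.62 ± 0.11), the nuclear receptor mutated in staggerer mice. Pcp2 (5.52 ± 0.23), Ppp1r17 and Lhx1 had hippocampal levels of 1.28 to 2.60, 0.0799 to 1.70 and 0.280 to 1.38 CPM. Calb1 (2.37 ± 0.20) is a marker of dentate and CA1 cells also and differed less, with 339.8 to 579 CPM (median 505) in cerebellum against 129.7, 103, 75.6 and 66.5 CPM in hippocampus. Among the genes lower in cerebellum were Itpka (-2.50 ± 0.16), an inositol trisphosphate kinase, and Cck (-3.68 ± 0.11), a neuropeptide. Both are also expressed by forebrain neurons.

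Interneuron and glial lists of the cerebellum were more mixed. Of 15 genes of cerebellar interneurons and unipolar brush cells, 9 were higher and 4 lower, the latter near the 27.9% of all genes tested (median 1.96). The AP-2 factor Tfap2b had 37.8 to 58.4 CPM (median 51.2) in cerebellum and 1.36, 0.710, 0.554 and 0.200 CPM in hippocampus (6.19 ± 0.32), and Tfap2a (4.82 ± 0.21) and Pax2 (3.83 ± 0.22), an interneuron lineage factor, went the same way. Eomes, a marker of unipolar brush cells in cerebellum, had 12.97 to 52.2 CPM (median 18.96) in cerebellum and 0.136, 1.11, 1.83 and 0.0400 CPM in hippocampus. WT3 was the highest cerebellar library; the log2 fold change was 4.94 ± 0.79, or 5.76 without hippocampal WT2. Grm2 (-1.79 ± 0.16) and Sorcs3 (-1.19 ± 0.08) were lower. Of 16 Bergmann glia and cerebellar astrocyte genes, 13 were higher and 1 lower (median 0.86). Gdf10 (3.64 ± 0.14), a TGF-beta family ligand, had 70.3 to 102 CPM (median 88.7) in cerebellum against 6.69, 6.21, 6.99 and 7.91 CPM in hippocampus. Dao (4.78 ± 0.19), the D-amino acid oxidase of cerebellar astroglia, A2m (3.53 ± 0.17) and Agt (2.01 ± 0.21), angiotensinogen, followed.

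**Figure D3:**
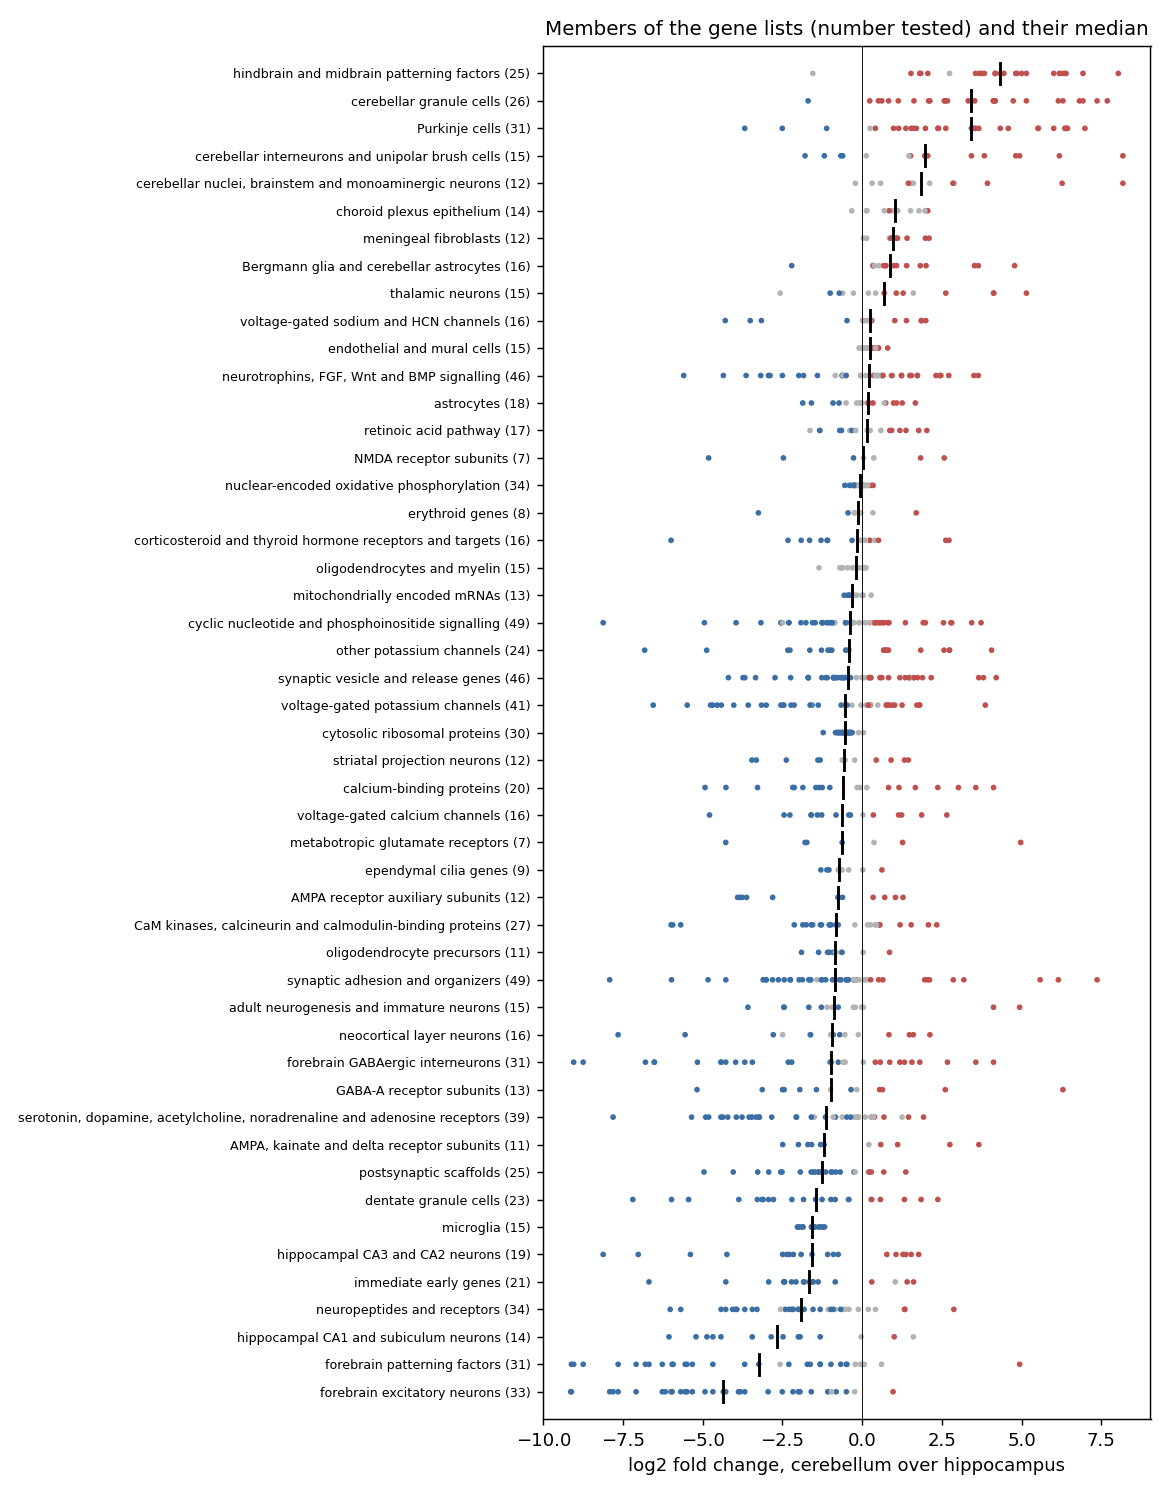
Log2 fold change of cerebellum over hippocampus for each tested member of 49 gene lists (dots; red higher and blue lower at an adjusted p under 0.05, grey not passed) and the median of each list (black bar). Lists run from hindbrain patterning factors at 4.33 to forebrain excitatory neurons at -4.35.

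Genes of hippocampal and other forebrain excitatory neurons were lower in cerebellum. Of 33 forebrain excitatory genes, 30 were lower and 1, Id2 (0.97 ± 0.11), an inhibitor of basic helix-loop-helix factors, higher; the median was -4.35. Nrgn, neurogranin, which binds calmodulin in dendrites, had 2.15 to 21.7 CPM (median 2.94) in cerebellum against 413, 388, 499.5 and 447 CPM in hippocampus. Its log2 fold change was -5.99 ± 0.71, or -7.34 without cerebellar KO2 and WT2, the 2 libraries with the highest cerebellar levels. Hpca (-4.93 ± 0.17), hippocalcin, and Neurod6 (-5.49 ± 0.09) showed no such spread. Of 14 CA1 and subiculum genes, 11 were lower (median -2.67, or -3.64 without cerebellar KO2 and WT2). Wfs1, the CA1 marker wolframin, had 31.9 to 41.3 CPM (median 37.9) in cerebellum against 113, 131, 231 and 114 CPM in hippocampus, and its high library was hippocampal WT2. Fibcd1 (-6.06 ± 0.58, or -7.23 without the 2 libraries) belonged to the same list.

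CA3, CA2 and dentate gyrus lists held exceptions. Of 19 CA3 and CA2 genes, 13 were lower and 6 higher, the latter near the 29.7% of all genes tested (median -1.57). Grik4, the kainate receptor subunit of CA3, had 14.4 to 24.5 CPM (median 16.2) in cerebellum and 100.5, 96.2, 88.4 and 109.9 CPM in hippocampus. Homer3 (1.37 ± 0.16), St18 (1.77 ± 0.13), Cacng5 (1.28 ± 0.27) and Pcp4 (1.54 ± 0.24) were higher in cerebellum, Homer3 and Pcp4 being Purkinje cell genes as well. Of 23 dentate granule cell genes, 16 were lower and 5 higher (median -1.46). Prox1, the dentate identity factor, was not absent from cerebellum: it had 84.1 to 124 CPM (median 98.5) there against 235, 171, 244 and 139.6 CPM in hippocampus, a log2 fold change of -0.98 ± 0.16. Dsp, which encodes desmoplakin, discriminated far more sharply, with 0.496 to 3.37 CPM (median 2.40) against 112, 90.6, 151 and 50.4 CPM (-5.44 ± 0.45). Hippocampal WT3 was the lowest library for Prox1 and for Dsp, and its summed level of the dentate list was 1618 CPM against 1999 to 2419 CPM in the other hippocampal libraries. C1ql2, a mossy fibre synapse organizer, had a log2 fold change of -5.98 ± 0.53, or -7.49 without cerebellar KO2 and WT2. Trpc6 (-3.87 ± 0.11), a cation channel, and Bdnf (-1.84 ± 0.13) were lower too, while Plk5 (1.85 ± 0.20), Penk (1.33 ± 0.20) and Igfbp5 (0.57 ± 0.06) were higher.

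Genes of forebrain GABAergic interneurons split. Of 31 tested, 17 were lower and 10 higher, the latter near the 29.7% of all genes tested. The median of -0.98 came to -2.37 without cerebellar KO2 and WT2. The medial ganglionic eminence factor Lhx6 (-5.17 ± 0.24) and Dlx1, with 0.0401 to 0.591 CPM (median 0.235) in cerebellum against 25.1, 29.01, 26.5 and 28.8 CPM in hippocampus, were nearly restricted to hippocampus. Dlx2 had 0 reads over all cerebellar libraries and 254 in hippocampus, at least 135.6-fold lower against a floor of 3 reads over the cerebellar group. The peptide gene Sst had 10.3 and 21.9 CPM in cerebellar KO2 and WT2, 0.631 to 1.12 in the other 4, and 53.7, 58.9, 72.7 and 69.2 CPM in hippocampus. Its log2 fold change of -3.44 ± 1.001 became -6.22 without those 2 libraries. Among those higher in cerebellum, Pvalb, parvalbumin, which Purkinje cells and molecular layer interneurons express, had 247 to 355 CPM (median 327) in cerebellum against 26.7, 28.2, 31.8 and 21.5 CPM in hippocampus (3.56 ± 0.14).

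Patterning factors separated the regions almost completely. Of 25 hindbrain and midbrain factors tested, 23 were higher and none lower, with the largest median of any list, 4.33. Another 15 were too low to be tested. Without cerebellar KO2 and WT2, 22 of 24 were higher and 1 lower (median 4.265). The list summed to 105 to 162 CPM in hippocampus and 1168 to 1616.5 CPM in cerebellum. Factors near 0 in one region could pass the filter on low counts only through the other, which favours the direction found. En1 had 1.35 to 4.38 CPM (median 3.43) in cerebellum and 0, 0.133, 0 and 0 CPM in hippocampus, so 3 reads in 1 hippocampal library set its hippocampal level. Of 31 forebrain factors, 25 were lower and 1 higher (median -3.24, or -4.41 without cerebellar KO2 and WT2); the 1 higher was Eomes. Emx1 (-5.33 ± 0.29), a dorsal forebrain homeobox factor, had 0.0454 to 0.265 CPM (median 0.147) in cerebellum and 6.28, 7.72, 7.07 and 6.27 CPM in hippocampus. Lhx2 (-5.96 ± 0.75, or -8.48 without the 2 libraries), Fezf2 and Tbr1 (-5.55 ± 0.19) were likewise low. Neurod2 differed little, with 64.7 to 116 CPM (median 109) in cerebellum and 145, 122, 153 and 145 CPM in hippocampus (-0.49 ± 0.15).

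Promoters of these genes were read for short motifs of homeodomain and basic helix-loop-helix factors. The 250 bases before the start site are shown for 4 genes, because each holds a motif of a factor class that differs between the regions. RefSeq sequences (GRCm38.p6) are given 5′ to 3′ on the gene's strand. Capitals mark the homeodomain core TAATTA in Uncx, a homeobox factor higher in cerebellum, and in Tbr1, a T-box factor lower there. In Pcp2, the L7 gene of Purkinje cells, and in Nrgn they mark the E-box CAGATG or its reverse complement CATCTG.
Uncx (chr5:139543648-139543897, + strand): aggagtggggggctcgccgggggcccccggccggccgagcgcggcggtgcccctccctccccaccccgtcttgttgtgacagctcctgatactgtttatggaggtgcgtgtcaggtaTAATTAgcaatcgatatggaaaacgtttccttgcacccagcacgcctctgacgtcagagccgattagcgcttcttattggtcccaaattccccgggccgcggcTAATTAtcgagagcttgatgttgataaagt
Tbr1 (chr2:61804203-61804452, + strand): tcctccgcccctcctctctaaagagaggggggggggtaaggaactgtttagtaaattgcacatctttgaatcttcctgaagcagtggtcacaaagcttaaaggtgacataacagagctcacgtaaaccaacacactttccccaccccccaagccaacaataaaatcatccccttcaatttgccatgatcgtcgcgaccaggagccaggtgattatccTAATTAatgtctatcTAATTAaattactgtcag
Pcp2 (chr8:3625548-3625797, - strand): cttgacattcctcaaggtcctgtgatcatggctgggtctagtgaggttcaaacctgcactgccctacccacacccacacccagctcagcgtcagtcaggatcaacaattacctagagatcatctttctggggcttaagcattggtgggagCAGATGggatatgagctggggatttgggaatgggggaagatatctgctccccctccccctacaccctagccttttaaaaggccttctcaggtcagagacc
Nrgn (chr9:37552746-37552995, - strand): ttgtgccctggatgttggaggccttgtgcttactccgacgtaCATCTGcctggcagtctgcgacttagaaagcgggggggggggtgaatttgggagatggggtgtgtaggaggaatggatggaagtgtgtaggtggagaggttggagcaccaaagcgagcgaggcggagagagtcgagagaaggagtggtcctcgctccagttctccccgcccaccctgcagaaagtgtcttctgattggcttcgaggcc

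The motifs occurred in both directions of change, as in these 4 promoters. TAATTA was found in 6.79% of 427 promoters of genes higher in cerebellum by a log2 fold change of 2 or more, in 3.66% of 683 promoters of genes lower by as much, and in 2.66% of all 13174 promoters matched by symbol. TAGGTCA, the site of ROR receptors, was in 3.28%, 1.32% and 1.61% of the same sets, CAGATG in 15.2%, 13.6% and 10.9%, and the Zic motif CCTGCTG in 12.2%, 11.4% and 8.82%. GTGGGCG, the Egr site, was rarer in both changed sets, at 6.32%, 8.35% and 11.6%. CAGCTG (14.1%, 16.0% and 12.5%), TGACGTC (3.51%, 3.37% and 4.40%), TTGGC (42.2%, 40.1% and 45.1%) and TATAAA (9.37%, 9.52% and 6.98%) were the other motifs searched. Both strands were read, overlaps between motifs were allowed, and median GC content was 55.6%, 57.2% and 58.8%. These shares are descriptions with no test, and a match is not a bound site.

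Glutamate receptor genes differed in both directions, subunit by subunit. Of 7 NMDA receptor subunits, 2 were higher, near the 29.7% of all genes tested, and 3 lower, against 27.9% (median 0.04). Grin2b had 55.4 to 190.3 CPM (median 66.3) in cerebellum against 2541, 2352, 2957 and 2506 CPM in hippocampus, a log2 fold change of -4.82 ± 0.38; the top of the cerebellar range was WT2. Grin2a had 231 to 286 CPM (median 259) against 1487, 1269, 1652 and 1320.0 CPM (-2.47 ± 0.09), with no overlap. Grin2c, the subunit of mature granule cells, went the other way, with 216 to 372 CPM (median 317) against 47.6, 51.3, 52.9 and 50.04 CPM (2.58 ± 0.16). The obligatory subunit Grin1 was nearly level at -0.27 ± 0.07. Per kilobase of exon, Grin2c was the leading GluN2 subunit in cerebellum at 59.8 CPM per kb, ahead of Grin2a at 14.4 and Grin2b at 3.74. In hippocampus the order was Grin2b at 104, Grin2a at 79.9 and Grin2c at 10.02 CPM per kb.

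Of 11 AMPA, kainate and delta subunits, 6 were lower and 4 higher in cerebellum. Gria1 had 342 to 489 CPM (median 402) in cerebellum against 1682, 1521, 1774 and 1513 CPM in hippocampus (-1.999 ± 0.09), and Gria2 (-1.31 ± 0.10) and Gria3 (-1.19 ± 0.06) were lower too. Gria4 alone of the 4 AMPA subunits was higher, with 478 to 673 CPM (median 557) against 77.4, 91.96, 72.2 and 89.4 CPM (2.75 ± 0.12). It was the leading AMPA subunit of cerebellum per kilobase, 88.5 CPM per kb against 67.9 for Gria1, while hippocampus had 13.1 and 269. The delta subunit Grid1 was lower (-1.59 ± 0.16). Among kainate subunits Grik2 was higher (1.11 ± 0.10) and Grik4 and Grik5 (-1.70 ± 0.05) lower. All 12 auxiliary subunits passed, 8 lower and 4 higher, the latter near the 29.7% of all genes tested. Cacng8 (-3.91 ± 0.22), Cnih2 (-3.63 ± 0.07) and Shisa7 (-3.76 ± 0.20) were the lowest of the named ones, and Cacng2 (1.04 ± 0.07), stargazin, which traffics AMPA receptors in granule cells, was among the cerebellar ones.

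Metabotropic receptors took opposite sides. Grm5, of postsynaptic spines, was lower, with 9.54 to 72.3 CPM (median 10.5) in cerebellum against 525, 469.8, 456 and 482 CPM in hippocampus (-4.28 ± 0.71, or -5.56 without cerebellar KO2 and WT2). Grm4, presynaptic on parallel fibres, had 399 to 646 CPM (median 486) against 15.9, 23.2, 13.3 and 11.8 CPM (4.97 ± 0.23). In all, 2 of the 7 tested were higher, near the 29.7% of all genes tested, and 4 lower, against 27.9%. The other lower ones were Grm2, Grm3 (-0.63 ± 0.13) and Grm7 (-1.73 ± 0.14).

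GABA-A receptor subunits also passed in both directions. Of 13 subunits tested, 4 were higher, near the 29.7% of all genes tested, and 7 lower, against 27.9%. Gabra6 averaged 408 ± 83.4 CPM in cerebellum and 5.24 ± 3.87 CPM in hippocampus (SD, n = 6 and 4). Gabrd, its extrasynaptic partner, had 65.1 to 110.4 CPM (median 96.4) in cerebellum and 16.4, 14.3, 16.3 and 12.9 CPM in hippocampus (2.61 ± 0.18). Gabra5, the subunit of tonic inhibition in CA1, ran opposite, with 0.374 to 0.721 CPM in 4 cerebellar libraries, 10.97 in KO2, 16.9 in WT2, and 182, 166, 212 and 191 CPM in hippocampus. Its log2 fold change was -5.18 ± 1.04, or -8.34 without these 2. Gabra2 (-2.50 ± 0.27) and Gabra4 (-2.45 ± 0.11) were lower with it, and so was Gabrb1 (-1.95 ± 0.11), while Gabrb2 (0.55 ± 0.08) was modestly higher. Per kilobase, the alpha subunits of cerebellum were led by Gabra6 at 164 CPM per kb and those of hippocampus by Gabra5 at 63.1 CPM per kb.

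**Figure D4:**
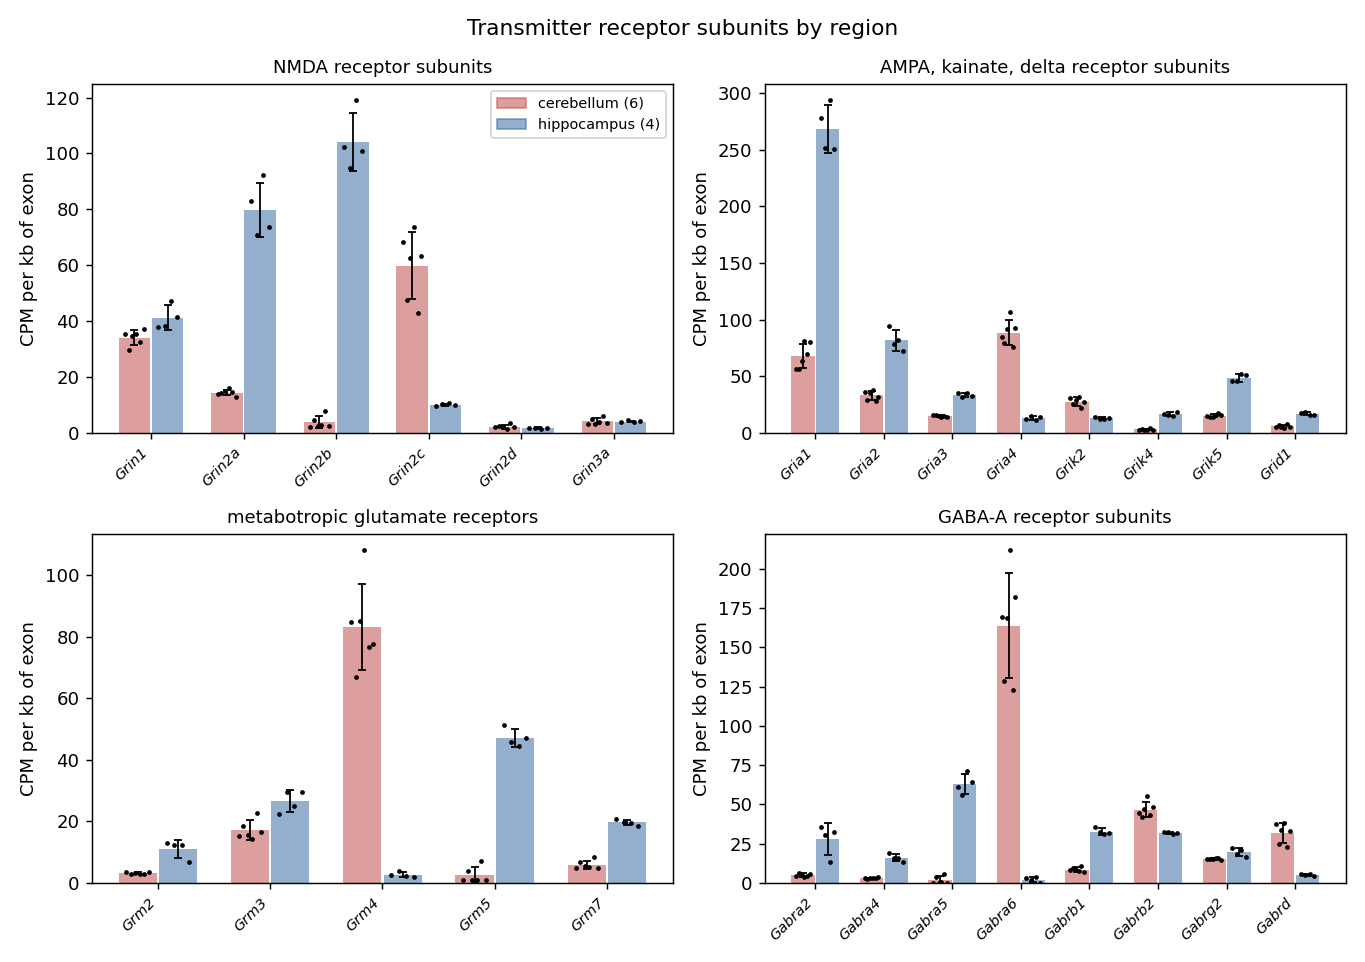
CPM per kilobase of exon for selected glutamate and GABA-A receptor genes in the 6 cerebellar (red, left) and 4 hippocampal (blue, right) libraries; bars are means, error bars SD and dots libraries. Of the genes drawn, Grin2c, Gria4, Grm4 and Gabra6 lead in cerebellum and Grin2b, Gria1, Grm5 and Gabra5 in hippocampus.

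Potassium channel genes passed in both directions. Of 41 voltage-gated genes, 13 were higher, near the 29.7% of all genes tested, and 21 lower, against 27.9% (median -0.53). The fast Kv3 channel gene Kcnc1 was higher, with 569 to 728 CPM (median 711) in cerebellum against 182, 189, 185 and 213 CPM in hippocampus (1.81 ± 0.10). Its relative Kcnc2, named after its values were seen, was lower at -3.16 ± 0.84, or -4.86 without cerebellar KO2 and WT2. Kcng4, a silent modulatory subunit, had 109 to 135 CPM (median 123) against 9.42, 7.85, 9.20 and 7.19 CPM (3.87 ± 0.10). The A-type auxiliary subunit Kcnip2 had 2.13 to 6.47 CPM (median 2.83) against 168, 139, 171 and 142 CPM (-5.49 ± 0.30). Kcnq5, an M-current subunit (-4.68 ± 0.57, or -5.79 without cerebellar KO2 and WT2), and the silent subunit Kcnv1 (-6.55 ± 0.54, or -7.78) were hippocampal. Of 24 other potassium channel genes, 10 were higher and 11 lower. The inward rectifiers Kcnj12 (4.06 ± 0.15) and Kcnj4 took opposite sides, as did the sodium-activated Kcnt1 (2.57 ± 0.19) and Kcnt2 (-4.88 ± 0.65, or -6.31). The leak channel Kcnk3, TASK-1, had 64.5 to 87.2 CPM (median 73.4) in cerebellum and 11.4, 13.4, 8.39 and 11.6 CPM in hippocampus (2.74 ± 0.14).

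Calcium and sodium channel genes held pairs of relatives on opposite sides. Of 16 calcium channel genes, 5 were higher, near the 29.7% of all genes tested, and 10 lower, against 27.9%. Cacna1a, the P/Q-type channel of Purkinje cells, had 689 to 1103 CPM (median 899.9) in cerebellum against 384, 387, 408 and 406 CPM in hippocampus (1.14 ± 0.12). Cacna1e, the R-type channel, had 309 to 795 CPM (median 424) against 1398, 1276, 1442 and 1305 CPM (-1.60 ± 0.18). Of the T-type channels, Cacna1g was higher (1.87 ± 0.15) and Cacna1h lower (-4.79 ± 0.60, or -5.83 without cerebellar KO2 and WT2). The auxiliary Cacna2d2 (2.66 ± 0.10), lost in ducky mice, and Cacnb4 (1.24 ± 0.12), lost in lethargic mice, were higher, and Cacnb3 (-2.26 ± 0.10) and Cacna2d3 (-1.60 ± 0.10) lower. Of 16 sodium and HCN channel genes, 8 were higher and 4 lower, the latter near the 27.9% of all genes tested. Scn1a (1.02 ± 0.08) and Scn4b (1.86 ± 0.33), a beta subunit linked to resurgent current, were higher; Scn4b had 69.7 to 173 CPM (median 81.8) in cerebellum against 23.98, 26.1, 37.9 and 27.1 CPM in hippocampus. Scn3b, another beta subunit, had 13.5 to 33.1 CPM (median 17.1) against 381, 331, 446 and 346 CPM (-4.29 ± 0.26). The channel partners Fgf14 (1.39 ± 0.13) and Fgf13 (-3.16 ± 0.20) were again opposite.

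Camk2a had the largest decrease among the calcium/calmodulin kinase subunits. Of 27 genes of this list, 16 were lower and 6 higher (median -0.83). Camk2b had 531 to 679.9 CPM (median 606) in cerebellum against 1598, 1456, 1587 and 1413 CPM in hippocampus (-1.31 ± 0.08), a much smaller difference than that of Camk2a (-5.69 ± 0.16). Camk2d had 247 to 314 CPM (median 280.3) against 55.6, 78.1, 37.7 and 49.9 CPM (2.34 ± 0.17), and Camk4, the nuclear kinase of granule cells, 932 to 1711 CPM (median 1131) against 256, 251, 324 and 289 CPM (2.08 ± 0.16). Per kilobase, Camk2b led Camk2a in cerebellum, 67.05 against 12.1 CPM per kb, and Camk2a led Camk2b in hippocampus, 624 against 166. The inhibitors Camk2n1 (-1.55 ± 0.10) and Camk2n2 (1.19 ± 0.19) moved oppositely. Camkv, a pseudokinase, was -5.94 ± 0.77, or -7.40 without cerebellar KO2 and WT2. Calcium buffers and sensors were divided, 7 of 20 higher and 10 lower: Hpcal1 (3.02 ± 0.16) and S100b (1.67 ± 0.11) stood on the cerebellar side, Hpcal4 (-4.27 ± 0.18) and Cabp7 (-2.18 ± 0.17) on the hippocampal one.

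Cyclic nucleotide and phosphoinositide genes were 17 higher and 24 lower of 49, against 29.7% higher and 27.9% lower of all genes tested, so the share of higher ones was near that of all genes. The phosphodiesterases Pde1c and Pde5a were higher; Pde1c had 154 to 238 CPM (median 189) in cerebellum against 13.6, 17.03, 11.9 and 13.9 CPM in hippocampus (3.73 ± 0.16), and Pde5a had a log2 fold change of 2.55 ± 0.13. Pde1a was lower, with 3.32 to 16.4 CPM (median 4.22) against 219, 232, 187 and 278 CPM (-4.95 ± 0.52, or -5.85 without cerebellar KO2 and WT2), and so was Pde2a (-3.18 ± 0.21). The phospholipases C beta split in the same way, Plcb4 with 398 to 542 CPM (median 472) against 48.7, 48.3, 39.2 and 38.2 CPM and Plcb1 with 104 to 133 CPM (median 125) against 364, 359, 368 and 356 CPM (-1.56 ± 0.07). Itpr3 (2.81 ± 0.30) and Rgs8 (2.78 ± 0.13) were higher, and Rasgrp1 (-3.95 ± 0.10), a Ras exchange factor, lower.

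Release genes differed by isoform. Of 46 vesicle and release genes, 17 were higher and 24 lower (median -0.44). The fast calcium sensor Syt2 had 525 to 624 CPM (median 549) in cerebellum against 44.6, 48.7, 38.6 and 31.1 CPM in hippocampus (3.80 ± 0.13). Syt1 had 442 to 476 CPM (median 465) against 1444, 1489, 1399.8 and 1652 CPM (-1.69 ± 0.06). Per kilobase, Syt2 and Syt1 were 73.98 and 55.6 CPM per kb in cerebellum, and 5.34 and 179 in hippocampus. Unc13c, a priming factor of granule cell synapses, had 424 to 542 CPM (median 466) against 23.5, 36.6, 20.2 and 23.1 CPM (4.20 ± 0.18). Syt9 (3.66 ± 0.09), Rims3 (2.17 ± 0.17) and Cadps2 (1.63 ± 0.15) were higher, and Stx1a (-4.20 ± 0.41, or -4.87 without cerebellar KO2 and WT2), Syt17 (-3.74 ± 0.26) and Cplx2 (-0.90 ± 0.08) lower. Slc17a6, the vesicular transporter VGLUT2, did not pass: it had 8.12 to 13.9 CPM in 4 cerebellar libraries, 62.3 in KO2 and 119 in WT2, against 13.1, 20.3, 8.35 and 7.63 CPM in hippocampus (1.61 ± 1.004, or -0.15 without these 2).

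Adhesion molecules and scaffolds were mostly lower. Of 49 adhesion and organizer genes, 30 were lower and 11 higher (median -0.84), and of 25 postsynaptic scaffolds, 19 were lower and 4 higher (median -1.27). Cdh15, M-cadherin of granule cells, had 32.5 to 51.5 CPM (median 46.8) in cerebellum and 1.09, 1.20, 1.24 and 0.200 CPM in hippocampus (5.58 ± 0.35), and Cdh7 (3.19 ± 0.14) went with it. Cdh9, a cadherin of CA3 synapses, was -4.83 ± 0.69, or -6.48 without cerebellar KO2 and WT2. C1ql3 (-3.11 ± 0.19), a relative of the cerebellins, and Nptx2 (-4.28 ± 0.56, or -5.55), a pentraxin of excitatory synapses, were lower. Among scaffolds, Kalrn, an exchange factor for small GTPases of spines, had 69.2 to 98.9 CPM (median 78.5) against 1395, 1321, 1460.3 and 1129.7 CPM (-4.04 ± 0.11). Synpo (-3.28 ± 0.09), of the spine apparatus, Dlgap2 (-4.96 ± 0.52, or -5.91) and Shank1 (-1.48 ± 0.06) were lower. Homer3 was higher and Homer1 (-1.60 ± 0.12) lower, and Dlg1 (0.68 ± 0.08) was modestly higher.

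Peptide and modulatory receptor genes belonged largely to hippocampus. Of 34 neuropeptide genes, 22 were lower and 3 higher (median -1.91, or -3.55 without cerebellar KO2 and WT2). Npy2r, the Y2 receptor, had 0.0902 to 1.94 CPM (median 0.345) in cerebellum and 51.5, 43.6, 47.4 and 63.9 CPM in hippocampus (-6.02 ± 0.58, or -7.70 without these 2), and the somatostatin receptor gene Sstr4 was -5.69 ± 0.31, or -6.30. Crhr1, the receptor for corticotropin-releasing hormone, a climbing fibre peptide, had 40.00 to 79.4 CPM (median 60.1) in cerebellum against 8.23, 9.85, 5.20 and 8.39 CPM in hippocampus (2.88 ± 0.24). Of 39 monoamine, acetylcholine and adenosine receptor genes, 22 were lower and 5 higher (median -1.15, or -2.11). Chrm1 had 0.271 to 2.37 CPM (median 0.944) against 279, 258, 277 and 277 CPM, and Chrm3 (-4.81 ± 0.73, or -6.45) and Htr4 (-4.91 ± 0.75, or -7.25) were also hippocampal. Htr1a had 7.99 CPM in cerebellar WT2 and 4.04 in KO2, 0 to 0.281 in the other 4, and 33.5, 32.9, 33.7 and 33.4 CPM in hippocampus (-3.95 ± 1.05, or -7.70). Chrnb2 (0.68 ± 0.07) was higher in cerebellum.

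Genes of corticosteroid and thyroid hormone action were lower in 8 of 16 and higher in 4, the latter near the 29.7% of all genes tested. Nr3c2, the mineralocorticoid receptor, had 40.1 to 78.99 CPM (median 75.1) in cerebellum against 319, 283, 388 and 330.0 CPM in hippocampus (-2.33 ± 0.19). Fkbp5 (-1.91 ± 0.21), a chaperone induced by glucocorticoids, and the thyroid receptors Thra (-1.10 ± 0.06) and Thrb (-1.65 ± 0.13) were lower. Hr, a corepressor induced by thyroid hormone, had 128 to 166 CPM (median 148) against 16.3, 24.8, 29.6 and 18.7 CPM (2.72 ± 0.17). In the retinoic acid pathway 6 of 17 were higher and 4 lower, with Aldh1a1 (1.38 ± 0.17) and Aldh1a2 (1.78 ± 0.30), which make retinoic acid, on the cerebellar side; these shares lie near those of all genes tested.

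Growth factor and morphogen genes were divided, 17 higher and 14 lower of 46 tested, close to the shares over all genes. Sonic hedgehog target Gli1 had 10.2 to 14.03 CPM (median 11.6) in cerebellum and 2.14, 2.22, 1.70 and 1.20 CPM in hippocampus (2.72 ± 0.15). Wnt7a (2.47 ± 0.24), which granule cells secrete, and Bmp5 (3.51 ± 0.23) were higher. Bdnf had 10.9 to 18.5 CPM (median 14.1) against 56.6, 41.7, 60.02 and 42.05 CPM. Dkk3 (-4.35 ± 0.40), a secreted protein of the Dickkopf family, was lower too.

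Microglial genes were uniformly lower in cerebellum. All 15 passed lower, with log2 fold changes of -2.03 to -1.18 and a median of -1.57. Csf1r, the receptor on which microglia depend, had 24.2 to 39.1 CPM (median 26.7) in cerebellum against 87.4, 83.97, 85.3 and 95.2 CPM in hippocampus (-1.58 ± 0.14). P2ry12 (-1.59 ± 0.13), Tmem119 (-1.86 ± 0.18) and Cx3cr1 (-1.85 ± 0.19) showed the same, and no library of 1 region reached the other. The summed level of the list was 101 to 185 CPM in cerebellum and 378 to 451 CPM in hippocampus.

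Astrocyte genes passed in both directions. Of 18 genes 8 were higher and 4 lower, against 29.7% and 27.9% of all genes tested, with a median of 0.17. Slc1a2, the transporter GLT-1, had 1184 to 2185 CPM (median 1216) in cerebellum against 5555, 5319, 5203 and 5312 CPM in hippocampus (-1.86 ± 0.18). Slc1a3, the transporter GLAST of Bergmann glia, had 626 to 941 CPM (median 849) against 497, 486, 470.3 and 474 CPM (0.74 ± 0.11). Per kilobase, Slc1a2 led in both regions, at 112 CPM per kb in cerebellum and 407 in hippocampus, with Slc1a3 at 94.2 and 56.4. Gfap (-1.59 ± 0.25) and Glul (-0.72 ± 0.20), glutamine synthetase, were lower, and Aqp4 (1.08 ± 0.09), S100b, Aldoc (0.99 ± 0.09) and Slc4a4 (1.26 ± 0.09) higher. Aldh1l1, a general astrocyte marker, had 38.5 to 60.7 CPM (median 46.5) against 42.8, 49.4, 40.9 and 38.8 CPM and did not pass (0.14 ± 0.12).

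For oligodendrocytes, the result depended on 2 libraries. None of 15 genes passed by edgeR, with a median of -0.19. Mbp had 1107 to 4365 CPM (median 1396) in cerebellum and 1499, 1981, 2470.5 and 2291 CPM in hippocampus (-0.11 ± 0.37); the high libraries in cerebellum were KO2 and WT2. Without them Mbp was lower at -0.69, 12 of the 15 genes were lower in cerebellum and the median was -0.77. These 2 libraries had the highest cerebellar Mbp and were chosen after seeing the data. Leaving them out could only lower the cerebellar Mbp level, so the lower value is no separate result. Precursor genes were 6 lower and 1 higher of 11, and 9 lower without the 2 libraries; Pdgfra had 23.1 to 47.00 CPM (median 25.2) in cerebellum against 61.2, 63.8, 70.8 and 56.9 CPM in hippocampus (-1.09 ± 0.20). The summed markers of cerebellar nuclei, brainstem and monoaminergic neurons were high in the same 2 libraries. Their part in these values was not tested.

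Barrier and ventricular cell types varied by library. Endothelial and mural genes were higher in 5 of 15, near the share over all genes, and lower in none (median 0.25). Meningeal genes were higher, 9 of 12 (median 0.98): Col1a2 had 14.5 to 36.6 CPM (median 22.6) in cerebellum against 3.46, 4.57, 11.8 and 5.64 CPM in hippocampus (1.98 ± 0.21). Ttr, transthyretin of choroid plexus, had 6.99 CPM in cerebellar WT1 and 582 to 1282 CPM in the other cerebellar libraries, against 43.8, 35.8, 1011 and 69.7 CPM in hippocampus. It did not pass (1.99 ± 1.66), but passed at 3.96 without hippocampal WT2. Leaving out that library, the highest hippocampal one, could only raise the difference, so the pass is no separate result. The value was 2.75 without cerebellar WT1, the lowest cerebellar library, and 1.23 and 1.20 without hippocampal KO1 or KO2. Of 14 choroid plexus genes none was lower and 2 were higher, Kcnj13 (0.84 ± 0.24) and Otx2 (2.06 ± 0.38). Otx2 was also in the list of cerebellar interneurons and unipolar brush cells. In CARIP-/- libraries alone 14 of the 14 were higher (median 2.56), and in wild-type libraries alone 0 were (median 0.09). The summed level of the list in wild type was 138 CPM in cerebellar WT1, 1310 in WT2 and 2148 in WT3, against 1851 in hippocampal WT2 and 353 in WT3. In CARIP-/- it was 1590 to 1812 CPM in cerebellum, against 239 in hippocampal KO1 and 262 in KO2. No gene of this list was called by edgeR or DESeq2 for a region difference that depends on genotype. The part of the amount of choroid plexus in each library was not tested. Of 9 ependymal genes 1 was higher and 3 lower, the named ones, Dynlrb2 (-1.11 ± 0.33) and Ccdc153 (-1.29 ± 0.32), with overlapping libraries. Of 8 erythroid genes 1 was higher and 2 lower, the globins passing in neither direction; the shares of lower genes in both lists lie near the 27.9% of all genes tested. In CARIP-/- libraries alone 3 erythroid genes were higher and 1 lower, and in wild-type libraries alone 0 and 4.

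Activity-regulated genes were mostly lower. Of 21 immediate early genes 17 were lower and 3 higher (median -1.67). Egr3 had 0.135 to 1.31 CPM (median 0.471) in cerebellum against 55.8, 53.6, 55.5 and 69.4 CPM in hippocampus (-6.69 ± 0.32, or -7.31 without cerebellar KO2 and WT2). Arc, which localises to active dendrites, had 12.5 to 20.9 CPM (median 16.9) against 94.3, 94.4, 109 and 223 CPM (-2.93 ± 0.24), and Egr1 30.4 to 37.7 CPM (median 33.1) against 80.98, 95.2, 91.6 and 165 CPM (-1.67 ± 0.14). Hippocampal WT3 was the highest library for both. Ier2 (1.41 ± 0.22) and Dusp1 (1.61 ± 0.38) were higher in cerebellum, and Fos did not pass (1.04 ± 0.64), with 3.77 to 37.6 CPM (median 14.7) against 4.55, 6.48, 6.43 and 18.1 CPM.

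Genes of adult neurogenesis were 7 lower and 2 higher of 15. Dcx, doublecortin of newborn neurons, had 8.70 to 21.5 CPM (median 9.28) in cerebellum against 32.03, 39.97, 50.4 and 31.1 CPM in hippocampus (-1.67 ± 0.28). Sox11 (-2.45 ± 0.29) and the proliferation gene Mki67 (-2.46 ± 0.33) were lower with it. The 2 higher, Calb2 and Eomes, mark mature cerebellar cells as well.

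Genes for translation and respiration differed by small amounts. Of 30 cytosolic ribosomal protein genes 28 were lower and none higher, with a median of -0.53. Rps2 had 47.4 to 85.5 CPM (median 54.05) in cerebellum and 137, 134, 139 and 136 CPM in hippocampus (-1.22 ± 0.13), and Rps19 was -0.75 ± 0.07. The other members lay between -0.84 and 0.04. Mitochondrially encoded mRNAs were lower in 4 of 13, near the 27.9% of all genes tested, or in 9 without cerebellar KO2 and WT2; mt-Co1 had 9388 to 15141 CPM (median 10656) in cerebellum against 17412, 16509.8, 15726 and 17388 CPM in hippocampus (-0.56 ± 0.13). Nuclear respiratory genes were lower in 6 of 34 and higher in 2, shares below those of all genes tested, or lower in 16 and higher in 2 without the 2 libraries, and none of them reached a log2 fold change of 1 in either direction.

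Marker lists of neighbouring regions were read for both tissues. Of 15 thalamic genes 7 were higher and 2 lower; the 3 highest were Zic1, Calb2 and Patj (4.13 ± 0.13), of which Zic1 and Calb2 are in the granule cell list too. Tcf7l2, the defining thalamic factor, did not pass (0.42 ± 0.48) and was lower, at -0.30, without cerebellar KO2 and WT2. Tcf7l2 had 46.9 CPM in cerebellar WT2 and 19.7 in KO2, 8.84 to 11.9 in the other 4, and 13.97, 12.7, 11.97 and 14.5 CPM in hippocampus. Of 12 striatal genes 4 were higher, near the 29.7% of all genes tested, and 5 lower, against 27.9% (median -0.58). Without cerebellar KO2 and WT2 these counts were 4 and 7 (median -1.52). Drd1 (-3.46 ± 0.43, or -4.47 without KO2 and WT2) was low in both regions, with 0.160 to 0.994 CPM (median 0.320) in cerebellum and 3.64, 4.97, 7.63 and 6.99 CPM in hippocampus, and Adora2a (-0.63 ± 0.31) did not pass. Drd2 (-0.23 ± 0.96) did not pass either, but was lower at -2.58 without cerebellar KO2 and WT2. Drd2 was -0.84 without KO2 alone and -1.38 without WT2 alone. KO2 and WT2 were chosen after seeing the data and held the highest cerebellar levels of Tcf7l2. The lower values of Tcf7l2 and Drd2 without both libraries are therefore no separate result. Of 16 neocortical genes 4 were higher and 6 lower, near the shares over all genes tested; Cux2 (0.84 ± 0.18) and Rorb (-0.70 ± 0.16) took opposite sides. Of 12 tested genes of cerebellar nuclei, brainstem and monoaminergic neurons 5 were higher and none lower, with a median of 1.86. Without cerebellar KO2 and WT2, 5 were higher, 3 lower and the median was -0.05. Glra1 shows the extent, at 6.27 ± 2.12 with all libraries and 2.59 without these 2; it also lost its call when either of the 2 or any 1 of the hippocampal libraries was left out, at 4.97 without WT2 and 6.87 without hippocampal KO1. Th, tyrosine hydroxylase, which some Purkinje cells express in mice, was higher (3.93 ± 0.36).

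Long noncoding RNAs were among the genes with the largest differences. Gm2694 (chr8:87460469-87525554) had 86.5 to 145 CPM (median 138) in cerebellum against 2.82, 2.31, 2.43 and 1.60 CPM in hippocampus (5.78 ± 0.23). 1700120C18Rik (chr8:87500049-87501231) had 10.5 to 21.04 CPM (median 19.2) against 0, 0.177, 0.298 and 0.120 CPM (6.80 ± 0.43). It lies wholly within Gm2694 on the opposite strand, and Gm2694 spans Cbln1 as well, so reads of these genes may not be separate measurements. Gm42912 (6.70 ± 0.47), Gm37916 (6.12 ± 0.37), Gm16141 (6.43 ± 0.28) and 4930429P21Rik (5.84 ± 0.29) were others of the cerebellum. Each long noncoding RNA named here overlaps another annotated gene on the opposite strand, from which its reads cannot be told apart where they overlap. 4921539H07Rik (chr3:58117053-58167616) had 0.227 to 0.748 CPM (median 0.486) in cerebellum and 42.99, 31.2, 92.8 and 39.2 CPM in hippocampus (-6.74 ± 0.37). Emx2os, antisense to Emx2, was -6.76 ± 0.66, or -9.85 without cerebellar KO2 and WT2, and its reads cannot be told apart from those of Emx2 (-7.09 ± 0.54, or -8.52) where the genes overlap.

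Some abundant genes showed little difference between the regions. Sptan1, spectrin of the neuronal membrane skeleton, had 1463 to 1827 CPM (median 1576) in cerebellum and 1636, 1633, 1807 and 1649 CPM in hippocampus (-0.07 ± 0.07). Kif1b (-0.02 ± 0.07), a vesicle motor, Ank3 (-0.03 ± 0.07), the ankyrin of the axon initial segment, Cltc (-0.09 ± 0.08), the clathrin heavy chain, which passed at -0.19 without cerebellar KO2 and WT2, and Gpm6b (0.04 ± 0.07) were the other 4 most abundant genes within 0.1 of 0 on the log2 scale, by whose size they were chosen. Cltc was -0.13 without KO2 alone and -0.14 without WT2 alone. Both libraries were chosen after seeing the data, so its call without them is no separate result.

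The region difference was the same in sign in both genotypes for all 13038 genes called, an outcome that a mean over both genotypes favours. Each genotype's contrast of 3 cerebellar against 2 hippocampal libraries came from a joint fit to all 10 libraries, in which the genotypes share the estimated spread. By these contrasts 9324 genes (41.2%) passed in CARIP-/- and 9051 (40.0%) in wild-type libraries, and 7622 (33.7%) passed in both with the same direction. Fitted alone, CARIP-/- libraries gave 5110 genes higher and 5549 lower, and wild-type libraries 3152 and 3347. The difference between the genotypes was tested by the interaction, which edgeR called for 0 genes; 502 (2.22%) had an unadjusted p under 0.05, and DESeq2 called 5. These 5 were Hbb-bt, Hbb-bs, Hba-a2, Ogn, a proteoglycan gene of the meninges, and 1700047I17Rik2. Rasgrp1 was among the genes with the smallest unadjusted p, with -3.71 ± 0.09 in CARIP-/- and -4.19 ± 0.10 in wild type (difference 0.48 ± 0.13, adjusted p = 0.99997 by edgeR's quasi-likelihood test). Mfge8 had -1.95 ± 0.15 in CARIP-/- and -1.14 ± 0.14 in wild type (difference -0.81 ± 0.21, adjusted p = 0.99997 by edgeR's quasi-likelihood test). In the contrasts from the joint fit, 4 genes (0.0177%) passed in both genotypes with opposite directions, the haemoglobin genes Hba-a1, Hba-a2 and Hbb-bs, and Ogn. All but Hba-a1 were also among the 5 called by DESeq2. Hba-a2 had 1.19 ± 0.39 in CARIP-/- and -1.39 ± 0.36 in wild type, with 2.47 to 5.63 CPM (median 3.53) in cerebellum and 2.23, 1.64, 10.9 and 4.68 CPM in hippocampus. The globin genes have near-identical copies, among which reads may be split. Ogn had -0.86 ± 0.22 in CARIP-/- and 1.09 ± 0.23 in wild type. With 2 hippocampal libraries per genotype, a p that misses the threshold does not show that the genotypes are alike.

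**Figure D5:**
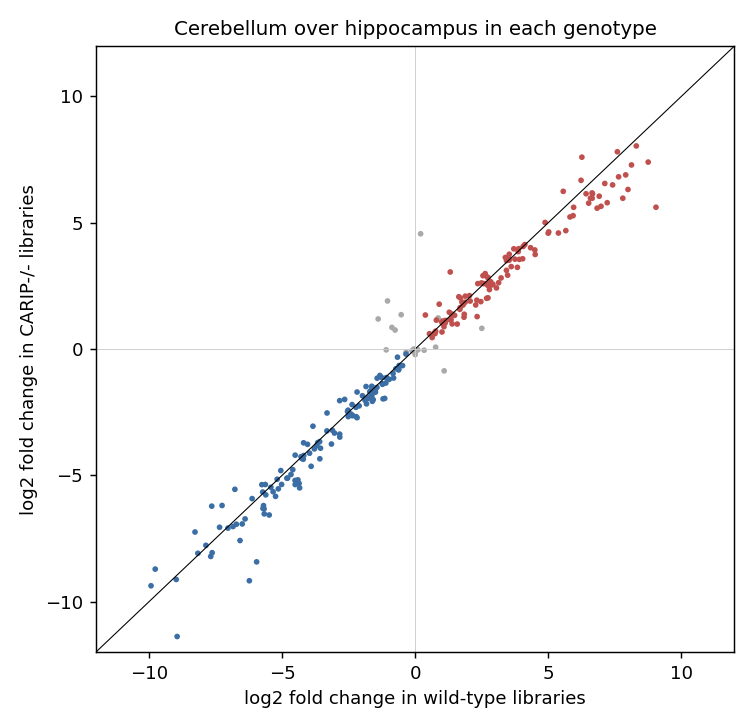
Log2 fold change of cerebellum over hippocampus for the genes named in the text, in CARIP-/- libraries (vertical axis, 3 against 2) and wild-type libraries (horizontal axis, 3 against 2); red and blue mark genes that passed higher and lower, grey those that did not, and the line marks equal values. All genes drawn that passed have the same sign in both genotypes, an outcome that a mean over both genotypes favours.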

How the data were processed

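Per the labels' protocols, total RNA was extracted with TRIzol, treated with DNaseI and made into Illumina libraries. Per the submitters' processing notes, the tools were Trim Galore 0.6.4, cutadapt 2.10, STAR 2.7.3a and featureCounts 2.0.1, and the builds named were GRCm38.p6 and mm10. The authors deposited raw read counts per gene in one table of 48440 genes, of which 12913 had no read in the 10 libraries used here. Gene IDs were matched to GENCODE M21 for 48058 genes (99.2%), which gave symbols, biotypes and exon lengths. Strandedness of the counting is not given in the sources used here.

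The counts of 10 libraries were filtered with filterByExpr, scaled by TMM and tested with edgeR 4.0.16 (R 4.3.3) by quasi-likelihood, with region and genotype as terms and Benjamini-Hochberg adjustment over 22607 genes; log2 fold changes are given ± standard error, and CPM values use the scaled totals. The test was checked on simulated counts with few changed genes and the same spread for every gene. That check does not cover data in which most genes differ, as here. A region by genotype term was added for the interaction, and DESeq2 1.42.0, limma 3.58.1 and the other alternatives are given in the closing section. Region was compared between libraries whose labels state it, and no batch is given. The 49 gene lists and the genes to be described were chosen with earlier results of these data known. Genes named were, per direction, the 15 with the largest change among genes with at least 20 CPM and no overlap, the 10 most abundant with a log2 fold change of at least 2, up to 4 per list with the largest change and the key members of each list, long noncoding RNAs by the same rule with at least 5 CPM, the smallest interaction p-values, and the 5 most abundant genes with a log2 fold change and a standard error both under 0.1. Exceptions are marked, and some genes that met the rule are not reported here. CPM per kilobase divides by the summed length of a gene's merged exons.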

Additional observations from a re-analysis of the deposited data

Results flagged for a closer look

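Among 518 sets of values, one for each gene named in the text and each region, 1 library lay apart from the others of its region by Dixon's test at the 95% level in 53. Chance alone gives about 1 in 20 sets, and neither number is corrected for genes that move together. Of these, 20 fell on cerebellar WT2, 14 on hippocampal WT3 and 9 on hippocampal WT2.

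Cerebellar WT2 was the highest cerebellar library for Cdh9 at 6.04 CPM (others 0.406 to 2.48), Chrm3 at 10.9 CPM (others 0.762 to 3.81), Egr3 at 1.31 CPM (others 0.135 to 0.530), Emx2 at 0.530 CPM (others 0 to 0.135), Emx2os at 0.636 CPM (others 0 to 0.0663), Fgf13 at 30.8 CPM (others 14.8 to 19.6), Fibcd1 at 6.11 CPM (others 0.676 to 1.82), Icam5 at 1.94 CPM (others 0.187 to 0.795), Kcnt2 at 6.43 CPM (others 0.545 to 2.15), Ncdn at 556 CPM (others 282 to 377), Nrgn at 21.7 CPM (others 2.15 to 9.48), Scn3b at 33.1 CPM (others 13.5 to 20.1) and Stx1a at 6.93 CPM (others 1.53 to 3.48). It was also highest for Gfap at 201 CPM (others 64.6 to 110.0), Mbp at 4365 CPM (others 1107 to 2207), Rps2 at 85.5 CPM (others 47.4 to 60.8), Sox11 at 13.2 CPM (others 4.02 to 6.82) and Tcf7l2 at 46.9 CPM (others 8.84 to 19.7). Many genes named in the text were chosen for a low level in cerebellum, so these flags are no count of a cell type. It was lowest for Cdh7 at 87.1 CPM (others 117 to 127) and Dlg1 at 169 CPM (others 205 to 219). The summed markers of cerebellar nuclei, brainstem and monoaminergic neurons were highest in the same library, 1135 CPM against 218 to 871 CPM in the other cerebellar ones. Their part in these values was not tested.

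Hippocampal WT3 was the highest hippocampal library for the activity-regulated genes Arc at 223 CPM (others 94.3 to 109), Egr1 at 165 CPM (others 81.00 to 95.2), Egr3 at 69.4 CPM (others 53.6 to 55.8), Fos at 18.1 CPM (others 4.55 to 6.48) and Ier2 at 4.24 CPM (others 2.93 to 3.11). It was highest also for Slc17a7 at 1008 CPM (others 805 to 831), Synpo at 195 CPM (others 174 to 175) and Thra at 481 CPM (others 411 to 421). It was lowest for the cerebellar genes Barhl2 at 0.0400 CPM (others 0.311 to 0.341), Cdh15 at 0.200 CPM (others 1.09 to 1.24), Pcp2 at 1.28 CPM (others 2.46 to 2.60) and Ppp1r17 at 0.0799 CPM (others 1.51 to 1.70), and for Cacnb4 at 140.0 CPM (others 163 to 166) and Grm2 at 32.7 CPM (others 59.8 to 63.00). The median share of cerebellar transcripts in WT3 was 0.103% against 0.919% to 1.03% in the other hippocampal libraries, and its part in these values was not tested. The genes behind this share were chosen in these same libraries and include Barhl2 and Ppp1r17, so it is not a separate measure from them.

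Hippocampal WT2 was the highest hippocampal library for Kcnj13 at 7.28 CPM (others 3.24 to 3.82) and Ttr at 1011 CPM (others 35.8 to 69.7), both of the choroid plexus list. It was highest also for 1700047I17Rik2 at 3.24 CPM (others 1.41 to 1.46), Ank3 at 1467 CPM (others 1328 to 1351), Chrm3 at 97.8 CPM (others 81.5 to 82.2), Gm16141 at 0.0852 CPM (others 0.0400 to 0.0455), Plk5 at 17.5 CPM (others 8.65 to 10.1), Sptan1 at 1807 CPM (others 1634 to 1649) and Wfs1 at 231 CPM (others 113 to 131).

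Cerebellar WT1 was the highest library of its region for Atp2b1 at 378 CPM (others 306 to 328) and Camk4 at 1711 CPM (others 932 to 1218). Hippocampal KO1 was the highest library of its region for Chd7 at 61.8 CPM (others 55.4 to 56.4) and Trpc6 at 47.4 CPM (others 34.4 to 36.00). Hippocampal KO2 was the lowest library of its region for Chrm1 at 258 CPM (others 277 to 279). Hippocampal KO2 was the highest library of its region for En1 at 0.133 CPM (others 0 to 0). Cerebellar WT3 was the highest library of its region for Eomes at 52.2 CPM (others 13.00 to 23.2). Cerebellar KO3 was the highest library of its region for Fezf2 at 0.514 CPM (others 0 to 0.135). Cerebellar KO1 was the highest library of its region for Neurod6 at 6.32 CPM (others 4.77 to 5.23) and Trpc6 at 3.14 CPM (others 2.39 to 2.62).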

How the results depend on the processing

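No gene called higher or lower turned its direction in any of the alternatives run. DESeq2 called 97.5% of the calls again, limma voom 97.7%, size factors in place of TMM 97.2%, upper-quartile scaling 98.9%, no filter on low counts 94.6%, no genotype term 98.1%, and a fit to all 14 libraries 87.7%; 57 of the calls had no adjusted p in DESeq2 and stay out of its share. The median over all genes ranged from 0.01 to 0.06 on the log2 scale. Leaving out each library in turn gave 5840 to 7047 genes higher and 5741 to 6873 lower, and 2442 to 2725 higher and 2937 to 3305 lower with a fold of at least 2. Wild-type libraries alone gave 3152 higher and 3347 lower, from 3 against 2 libraries, and knockout libraries alone 5110 and 5549. Wild-type libraries alone called only 49.4% of the calls again, and 74.7% of those with a fold of at least 2. Knockout libraries alone called 77.7% and 90.2% again. In each case these are shares of the calls with an adjusted p there, which 57 and 33 calls lacked. Without cerebellar KO2 and WT2, an alternative chosen after seeing the data, 12489 of the 13038 calls passed again, which is 97.2% of those with an adjusted p there; 192 had none. Tcf7l2, not called in the full set, was then called lower at -0.30, with its highest cerebellar libraries left out. In knockout libraries alone Hba-a2 was called higher at 1.18 and Ogn lower at -0.88, against the sign of their uncalled values. Differences that passed in neither setting were not counted as turned.

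The interaction was called for 5 genes by DESeq2 and for 0 by edgeR, with size factors and without each library in turn included, where 391 to 814 genes had an unadjusted p under 0.05. Replicate numbers occur in both regions, and the sources used here do not say whether a number marks an animal. Deviations of same-numbered libraries from their group means had correlations of 0.11 and 0.16 in knockout and -0.08 and 0.04 in wild type, over 13184 genes. With 2 hippocampal libraries per genotype, the hippocampal deviations mirror each other, so these correlations cannot decide whether the samples are paired. With replicate number as a block, 5823 genes were higher and 5668 lower, and 2359 and 2884 with a fold of at least 2. The fit with this block called 85.6% of the calls again. In wild type, WT2 did not correlate best with its own number.

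At 20.1 to 28.5 M reads a library, genes with a few reads in one region have fold changes that depend on the prior count.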
